A study of Rattus norvegicus with 6 samples.

Results

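Complexes II to V of mitochondrial oxidative phosphorylation were followed through their nuclear-encoded subunit genes in left atrial RNA from rats paced for 2 days. The group holds 41 genes, taken as the usual subunits of succinate dehydrogenase (complex II), the cytochrome bc1 complex (III), cytochrome c oxidase (IV) and ATP synthase (V). A gene counted as measured if a probe set carried no symbol but its own and exceeded 5 on the log2 scale on 1 array or more, and of several such probe sets the brightest on average was taken. This gave 36 subunit genes among 11237 genes: 4 of 4 of complex II, 7 of 9 of complex III, 11 of 13 of complex IV and 14 of 15 of complex V. Uqcr10, Cyc1, Cox6b1, Cox7a1 and Atp5mf are named by no such probe set and carry no value here.

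The samples were whole left atria of adult male Sprague-Dawley rats, of which 3 had undergone rapid atrial pacing (RAP, cycle length 70 ms) and 3 control pacing (Con, cycle length 140 ms), both for 48 hours. All animals, controls included, carried an electrode implanted on the right atrium, drank water with the beta blocker atenolol, and received heparin before sacrifice. Under RAP the ventricles followed every other atrial beat, so that the ventricular rate was similar in both groups, and neither group was left unpaced. Rats of a pair were operated on, recovered and paced side by side, and the pairs are numbered 1 to 3.

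In the inner mitochondrial membrane, complex II passes electrons from succinate to ubiquinone, complex III passes them from ubiquinol to cytochrome c, and complex IV passes them on to oxygen. Complexes III and IV pump protons as they do so, and complex V lets the protons back through its membrane ring to drive ATP synthesis in its F1 head. Atrial muscle draws most of its ATP from this chain. The catalytic core of complex IV, cytochrome b of complex III and a pair of ATP synthase subunits are encoded by mitochondrial DNA, and the 6 such genes that were listed were not measured here.

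After RAP 5 subunit genes were higher and passed the study's thresholds, a fold change above 1.3 with an unadjusted p under 0.05: Sdha, Uqcrc1, Uqcrc2, Atp5f1a and Atp5f1d. They are 13.9% of the 36 measured, beside 2.94% of all genes called higher. None of the 36 was called lower, beside 3.45% of all genes. By complex, 1 of 4 genes passed in complex II, 2 of 7 in complex III, 0 of 11 in complex IV and 2 of 14 in complex V. Without replicate 3 (the third pair) these counts were 4, 5, 6 and 10, where 9.49% of all genes were called higher. With Con 3 alone left out (unpaired) they were 4, 3, 0 and 6 (6.85% of all genes). With RAP 3 alone left out they were 3, 3, 0 and 4 (4.76%). The 0 of complex IV thus changed when the whole pair was left out, and not with either of its arrays alone. The test was limma's moderated one, with pairs as blocks, and after adjustment over all genes 0 passed at 0.05. The smallest adjusted p of limma was 0.699, which is also that of each of the 5 genes. With array weights, which lean on pair 1, 12 subunit genes and 1884 genes in all had an adjusted p under 0.05 (limma). The count rested on single pairs. Without replicate 3, 25 subunit genes passed (9.49% of all genes were called higher), without replicate 1 only Uqcrc1 did (0.516%), and without replicate 2 only Uqcrc1 and Atp5f1d did (1.46%).

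Sdha encodes the flavoprotein of complex II, which binds FAD and oxidizes succinate. Its log2 signal was 10.29, 10.24 and 10.75 in Con 1 to 3, and 10.87, 11.26 and 11.01 in RAP 1 to 3. The groups did not overlap, and Con 3 was the highest control. The change was 0.62 on the log2 scale (SE 0.19, 95% interval 0.12 to 1.12, n = 3 pairs), a fold of 1.53.

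The other subunits of complex II gave smaller differences. Sdhc, which with Sdhd anchors the complex in the membrane, read 10.50, 10.75 and 11.12 in Con 1 to 3 and 11.29, 11.47 and 11.16 in RAP 1 to 3. The groups did not overlap, but RAP 3 lay only 0.04 above Con 3, and the mean difference of 0.52 (SE 0.20, 95% interval -0.01 to 1.04) narrowly missed the threshold. Mean differences were 0.40 for Sdhd and 0.39 for the iron-sulfur subunit Sdhb, each with a pair 3 difference below 0 (-0.07 and -0.20).

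Uqcrc1 and Uqcrc2 encode the core proteins of complex III, large subunits on its matrix side that carry no redox centre. For Uqcrc1 the log2 signal was 9.87, 10.13 and 10.26 in Con 1 to 3 and 10.42, 11.07 and 10.87 in RAP 1 to 3. All RAP arrays were above all controls, and the pairs differed by 0.55, 0.93 and 0.61. The change of 0.70 (SE 0.15, 95% interval 0.31 to 1.08) was the largest of the 36 genes, a fold of 1.62. Uqcrc2 read 10.64, 10.66 and 11.21 in Con 1 to 3 and 11.30, 11.67 and 11.54 in RAP 1 to 3. Again the groups did not overlap, with Con 3 close below RAP 1, and the change was 0.67 (SE 0.18, 95% interval 0.20 to 1.14).

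The other 5 measured subunits of complex III did not pass. Uqcrfs1, the Rieske iron-sulfur protein, read 9.60, 9.59 and 10.28 in Con 1 to 3 and 10.29, 10.68 and 10.06 in RAP 1 to 3, so that RAP 3 lay below Con 3. Its mean difference of 0.52 was as large as that of Sdhc, with a wider error (SE 0.28, 95% interval -0.21 to 1.25). The small subunits gave mean differences of 0.37 (Uqcrq), 0.21 (Uqcr11), 0.08 (Uqcrh, the hinge protein) and 0.04 (Uqcrb).

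Of complex IV, 0 of 11 subunits passed. Without replicate 3, 6 did (9.49% of all genes were called higher), and without Con 3 or RAP 3 alone 0 did. The mean differences ran from -0.01 to 0.26. Cox4i1, a subunit that surrounds the catalytic core and takes part in its regulation by ATP, had the largest. Its log2 signal was 11.42, 11.52 and 11.83 in Con 1 to 3 and 11.81, 12.22 and 11.52 in RAP 1 to 3. RAP 3 stood level with Con 2 and below Con 3, and the difference of 0.26 had a 95% interval from -0.34 to 0.87. Cox5a and the zinc-binding Cox5b, both on the matrix side, differed by 0.26 and 0.24. For Cox6c the mean difference was 0.07, for Cox7a2 0.21, for Cox7b 0.13 and for Cox7c 0.04.

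In heart and skeletal muscle several complex IV subunits come as a muscle isoform beside a ubiquitous one, and both were measured for Cox6a and Cox8. The muscle isoform Cox6a2 read 11.95, 11.85 and 12.29 in Con 1 to 3 and 12.38, 12.47 and 11.83 in RAP 1 to 3, a mean difference of 0.20. Its ubiquitous counterpart Cox6a1 read 11.45, 11.53 and 11.65 in Con 1 to 3 and 11.75, 11.45 and 11.38 in RAP 1 to 3, a mean difference of -0.01. Both overlapped between the groups.

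Cox8b, the muscle isoform of that subunit, read 10.65, 10.56 and 11.17 in Con 1 to 3 and 10.90, 11.54 and 10.65 in RAP 1 to 3, a mean difference of 0.24. The ubiquitous Cox8a read 11.19, 11.19 and 11.30 in Con 1 to 3 and 11.42, 11.32 and 10.97 in RAP 1 to 3, a mean difference of 0.01. The difference of muscle against ubiquitous isoform changed with RAP by 0.13, 0.70 and -0.20 in pairs 1 to 3 for Cox6a (mean 0.21, SD 0.45) and by 0.02, 0.85 and -0.19 for Cox8 (mean 0.23, SD 0.55). Both spreads exceed their means. For Cox7a only the ubiquitous Cox7a2 was measured.

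In complex V the genes that passed encode parts of the F1 head and its stalk. Atp5f1a is the alpha subunit, which alternates with the catalytic beta subunits in the head. Its log2 signal was 11.91, 11.85 and 12.22 in Con 1 to 3 and 12.32, 12.64 and 12.43 in RAP 1 to 3. No RAP array fell within the control range, and the change was 0.47 (SE 0.17, 95% interval 0.04 to 0.90), a fold of 1.38. Atp5f1d, the delta subunit of the rotating central stalk, read 10.71, 10.80 and 11.04 in Con 1 to 3 and 11.42, 11.32 and 11.55 in RAP 1 to 3. Its 3 pairs differed by 0.71, 0.52 and 0.51, the most even set among the genes that passed, and the change was 0.58 (SE 0.13, 95% interval 0.23 to 0.92).

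**Figure D1:**
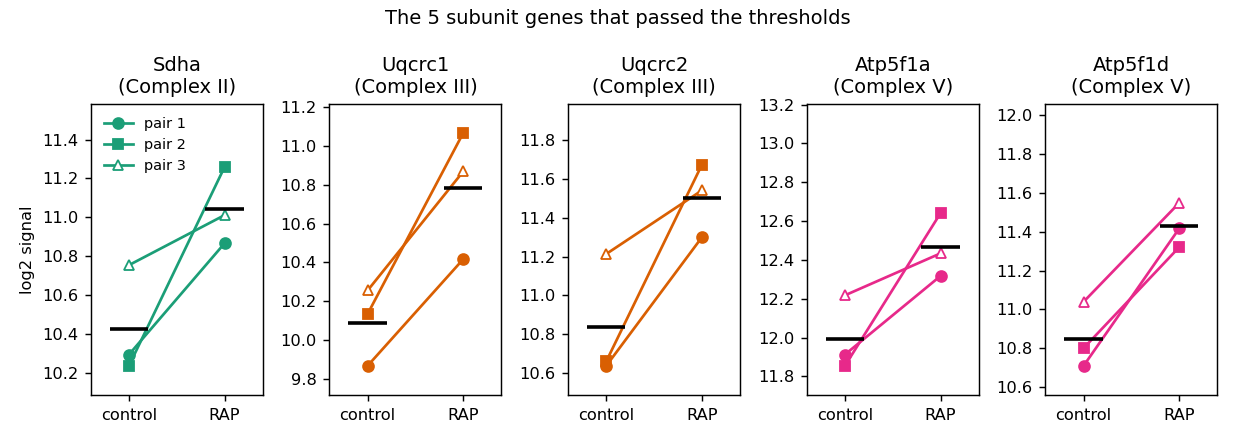
Log2 signal of the 5 subunit genes that passed the thresholds, in control and RAP rats, with lines joining the rats of a pair and black bars at the group means (n = 3 per group); every vertical axis spans the same log2 range but starts at its own value. In each panel the 3 RAP arrays lie above the 3 controls, and the line of pair 3 is clearly the flattest for Sdha (0.26), Uqcrc2 (0.33) and Atp5f1a (0.22).

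The plot of the 5 genes shows that their lack of overlap rests on different margins. For Sdha, Uqcrc2 and Atp5f1a the gap between the highest control, Con 3, and the lowest RAP array, RAP 1, is narrow. For Atp5f1d, where RAP 2 is the lowest RAP array, it is wide. With the methods' paired t-test, which uses no moderation, Uqcrc1 and Atp5f1d passed, and Sdha, Uqcrc2 and Atp5f1a did not.

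The remaining F1 subunits were lower than their control in pair 3. The catalytic beta subunit Atp5f1b differed by 0.38, 0.72 and -0.05 in pairs 1 to 3 (mean 0.35), gamma (Atp5f1c) by 0.18 on average and epsilon (Atp5f1e) by 0.11. Over the 5 F1 genes the median change was 0.35, and over the 9 measured genes of the stator and membrane part it was 0.30. In the latter 0 passed. Atp5po, the oligomycin sensitivity protein at the top of the peripheral stalk, had the largest of these mean differences (0.40). The other parts of that stalk differed by 0.32 (Atp5pb), 0.23 (Atp5pd) and -0.07 (Atp5pf). Atp5mc1, Atp5mc2 and Atp5mc3 encode the same mature c subunit of the membrane ring, and differed by 0.37, 0.07 and 0.38. For Atp5mc1 the pairs gave 0.67, 1.01 and -0.56, the widest spread of the 3 genes. The small membrane subunits Atp5me and Atp5mg differed by 0.20 and 0.30.

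Several probe sets read 6 of the subunit genes (Uqcrb by 3, and Cox5a, Cox7a2, Atp5mc2, Atp5mc3 and Atp5pd by 2 each). Probe sets of 1 gene gave mean differences close to each other, for example 0.38 and 0.34 for Atp5mc3, and 0 of them passed. Whether some of them read near-identical copies elsewhere in the genome was not tested.

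The direction of the subunit genes split by pair. In pair 1, 36 of 36 were higher after RAP (49.7% of all genes were), in pair 2 35 of 36, all but Cox6a1 (48.1% of all genes), and in pair 3 6 of 36 (51.7% of all genes). The same 6, Sdhc and the 5 genes that passed, were higher in all 3 pairs, which is 16.7% of the 36 beside 14.3% of all genes. They are also the 6 whose RAP arrays all lay above all controls, beside 7.57% of all genes. On average over the pairs 34 of 36 were higher after RAP, the exceptions being Cox6a1 and Atp5pf.

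**Figure D2:**
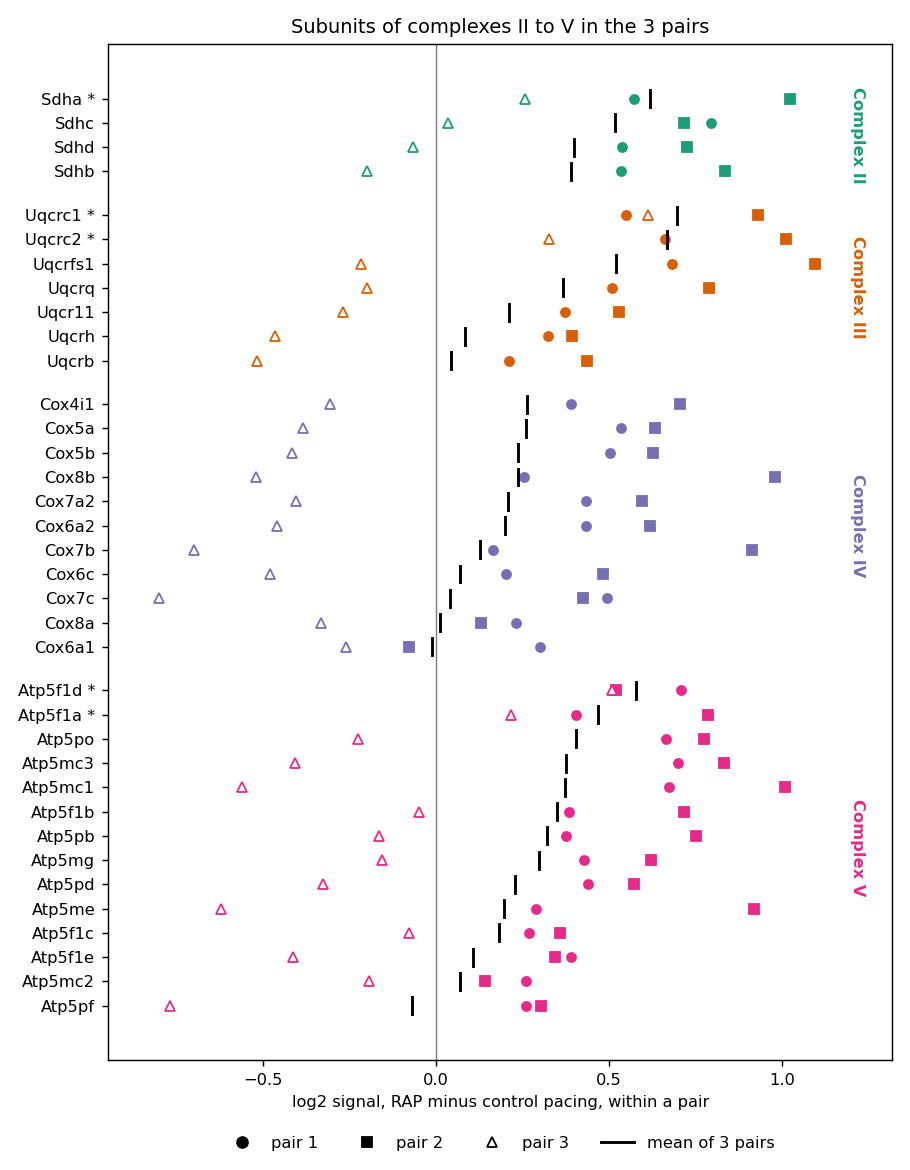
Difference in log2 signal between the RAP rat and the control of its pair, for each of the 36 measured subunit genes by complex; symbols are pairs 1 to 3, black ticks their mean, and a star marks the 5 genes that passed. Pair 1 lies above 0 for 36 genes and pair 2 for 35, while the open triangles of pair 3 lie above 0 for 6 genes, 0 of them in complex IV.

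The medians of the 4 complexes followed the same split, as the plot of differences by gene shows. The median change over the 36 genes was 0.25, with medians of 0.43, 0.67 and -0.29 within pairs 1 to 3, beside -0.007 for all genes. Complex II had the highest median change, 0.46, with 0.56, 0.78 and -0.02 within the pairs. For complex III it was 0.37 (0.51, 0.79 and -0.22 within the pairs), and for complex V 0.31 (0.40, 0.67 and -0.21). Complex IV had the lowest, 0.20, and was lowest in each pair, at 0.39, 0.62 and -0.42. The spread between pairs within a complex (SD 0.41 to 0.54) exceeds the distance between the complexes, and a difference between complexes was not tested.

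The rest of the pathway was read from lists of genes that work beside the 4 complexes. Of 32 measured subunits of complex I, which feeds the chain with electrons from NADH, 2 rose: Ndufv1 by 0.64 and Ndufa9 by 0.72. These 2 stand beside the 2.94% of all genes. Leaving out pair 1, 2 or 3 gave 0, 1 and 26 instead, leaving out Con 3 alone gave 11, and the methods' paired t-test gave 0. In these settings 0.516%, 1.46%, 9.49%, 6.85% and 1.06% of all genes were called higher. The median change of complex I was 0.26, and its pairs gave 0.52, 0.74 and -0.52, a pattern like that of complex IV. Of 11 measured genes of the tricarboxylic acid cycle, which supplies complexes I and II, 6 rose (54.5%, beside 2.94% of all genes). They were led by Dld (0.77), Idh3a (0.76) and Idh3b (0.67). Leaving out pair 1, 2 or 3 gave 2, 2 and 10 instead, leaving out Con 3 alone gave 10, and with the methods' paired t-test 2 passed. The shares of all genes were those given above for complex I. The median of the cycle was 0.54, and stayed above 0 in pair 3 (0.58, 0.90 and 0.18). Complex II is itself part of this cycle, and its genes were counted only with the complexes.

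**Figure D3:**
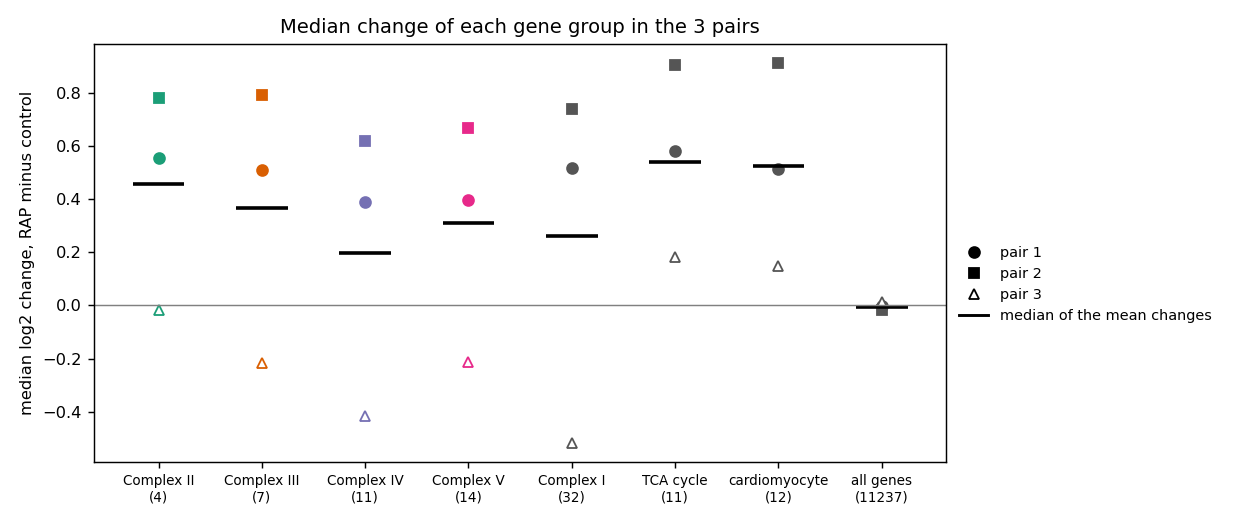
Median log2 change (RAP minus control) of each gene group, with the number of measured genes in brackets; symbols give the median within pairs 1 to 3 and black bars the median of the mean changes. The 4 complexes and complex I lie below 0 in pair 3, from -0.02 for complex II to -0.52 for complex I, whereas the tricarboxylic acid (TCA) cycle and cardiomyocyte markers lie above 0 in every pair.

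Partners and further isoforms of the complexes were read next. Cytochrome c itself (Cycs), which carries electrons from complex III to IV, differed by 0.34 (0.60, 0.63 and -0.22 in pairs 1 to 3) and did not pass. Atp5if1, the inhibitor that binds ATP synthase when the membrane potential falls, differed by -0.24, with -0.86 in pair 3. Among 8 measured isoforms and partners, 1 fell (3.45% of all genes were called lower) and 0 rose. The gene that fell was Cox6b2, known as a testis isoform of a complex IV subunit. Its log2 signal was 8.40, 7.88 and 8.64 in Con 1 to 3 and 7.67, 7.51 and 7.38 in RAP 1 to 3. The groups did not overlap, and 882 of 11237 genes were lower in that way. The change of Cox6b2 was -0.79 (SE 0.21, 95% interval -1.33 to -0.25), and by the methods' paired t-test it did not pass.

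Of 25 measured assembly factors for complexes II to V, 2 rose (8%, beside 2.94% of all genes), with a median change of 0.19. They were Lrpprc (0.48), which stabilizes mitochondrial messenger RNA and is needed for complex IV, and Bcs1l (0.41), which inserts the Rieske protein into complex III. Among carriers and channels that move phosphate and nucleotides, 3 of 6 rose (50%, beside 2.94% of all genes). They were the outer membrane channels Vdac1 (0.69) and Vdac2 (0.44), and Slc25a5 (0.47), an ADP/ATP exchanger. The exchanger that predominates in heart, Slc25a4, differed by 0.21 and did not pass. Without replicate 1, 0 of the assembly factors and 1 of the carriers passed (0.516% of all genes were called higher). Without replicate 2 it was 0 and 2 (1.46%), and without replicate 3, 7 and 4 (9.49%). With Con 3 left out (unpaired) it was 6 and 4, with Con 1 left out 0 and 1, and with Con 2, RAP 2 or RAP 3 left out 0, 0 and 1 assembly factors.

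Of 12 measured regulators of mitochondrial genes 0 passed in limma, and 0 had an unadjusted p under 0.05 and a higher level after RAP. Without replicate 3, 5 passed, where 9.49% of all genes were called higher. Without RAP 3 and Con 3 in turn (unpaired) 3 and 2 passed, beside 4.76% and 6.85% of all genes. The transcription factors Nrf1 and Gabpa, which are known to act on many subunit genes, differed by -0.17 and -0.07. Nrf1 was lower after RAP in all 3 pairs (-0.13, -0.23 and -0.16). Its groups did not overlap, and 882 of 11237 genes were lower in that way. The change of Nrf1 (SE 0.13, 95% interval -0.50 to 0.16) missed both the fold and the p threshold in limma. By the methods' paired t-test its p was 0.025, and the fold threshold was still missed. Ppargc1a, a coactivator of mitochondrial biogenesis, differed by 0.62, 1.57 and -0.54 in pairs 1 to 3 (mean 0.55, SE 0.41), the sign pattern of most subunit genes. Esrra, a nuclear receptor that works with it, differed by 0.36 (SE 0.15, 95% interval -0.02 to 0.74) and was higher after RAP in all 3 pairs. Tfam, which binds and transcribes mitochondrial DNA, differed by 0.20. Tfam and the further regulators Tfb2m, Esrrg and Ppargc1b had the same signs by pair as Ppargc1a, and the rest had other signs.

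Promoters of the subunit genes were searched because NRF-1 and GABP sites are a known shared feature of this gene family. Each window ran from 250 bases before to 50 after the start of the gene in RefSeq (build GRCr8), and 35 of the 41 genes had one. The motifs were GCATGCGC for NRF-1, CCGGAAGT for GABP and TCAAGGTCA for estrogen-related receptors (ERR), read on both strands, with overlapping matches counted once per promoter. The NRF-1 motif was in 6 promoters (17.1%, against 3.11% of 21842 promoters of protein-coding genes), GABP in 5 (14.3% against 4.78%) and ERR in 2 (5.71% against 0.366%). One or the other of NRF-1 and GABP was in 11 (31.4% against 7.61%), and in 5 of 34 promoters of complex I (14.7%). It was in 2 of the 5 genes that passed and in 9 of 26 measured genes with a promoter that did not. Matches of letters do not show that a factor binds there.

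The windows below are those of the genes that passed and hold a motif, Uqcrc1 (chr8:118468173-118468202, plus strand) and Atp5f1a (chr18:73567465-73567494, plus strand), followed by a member of complex II, III, IV and V each that did not pass, Sdhb (chr5:158547756-158547785, plus strand), Uqcrq (chr10:38089982-38090011, minus strand), Cox5b (chr9:46417812-46417841, plus strand) and Atp5po (chr11:44657522-44657551, minus strand). They are written 5′ to 3′ on the strand of the gene, with the motif in capitals.
Uqcrc1: tactccaccctGCGCATGCgtagcgcggct
Atp5f1a: agaagggcggtACTTCCGGgtcaggtgggc
Sdhb: aagcccagtggGCATGCGCcctactggccg
Uqcrq: ttccgctcctcCCGGAAGTgacgtgcaaag
Cox5b: tctgtctgttcCCGGAAGTgcatctgcttg
Atp5po: cgccgacgcgcGCATGCGCtctggcatcac
Uqcrc1, Sdhb and Atp5po hold the NRF-1 motif and the others the GABP motif. In Uqcrc1 the motif starts at position -39 from the gene start, and in Atp5f1a at -61, while in Sdhb it lies farther out, at -167. Sdha, Uqcrc2 and Atp5f1d, which also passed, hold none of the 3 motifs in this window.

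Con 3 and RAP 2 stood apart for the subunit genes. Con 3 was higher than Con 1 and Con 2 in 35 of 36 genes (97.2%, beside 36.6% of all genes), and RAP 2 was the highest array in 32 (88.9%, beside 21.8%). As mean log2 deviations from each gene's average, the 36 genes lay at -0.30, -0.25 and 0.13 in Con 1 to 3 and at 0.14, 0.40 and -0.12 in RAP 1 to 3. RAP 3 was thus below Con 3 on average over the family, level with it for complex II (0.08 in both) and furthest below it for complex IV (-0.27 against 0.19).

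Markers of heart muscle cells and of other cells moved along with these arrays. Of 8 measured atrial markers, Nppa (13.40 to 13.59) and Myl7 (13.61 to 13.76) were high on every array. Kcna5 (5.35 to 6.72) and Gja5 (6.05 to 6.53) were dim, and the rest lay between. Nppa and Myl7 were near the array maxima (13.72 to 13.93), so that they cannot tell how much other tissue a sample held. Of the 12 cardiomyocyte markers 4 rose (33.3%, beside 2.94% of all genes), led by Ttn by 0.81, Mybpc3 by 0.77 and Casq2 by 0.75. Without replicate 1 or 2, 1 rose, and without replicate 3, 11 did, beside 0.516%, 1.46% and 9.49% of all genes. With Con 3 left out 10 rose (unpaired, 6.85% of all genes). These markers had mean deviations of -0.44 to 0.05 in the controls and 0.10 to 0.51 in RAP. Like the subunit genes they were lowest in Con 1 and Con 2 and highest in RAP 2, and their median change was 0.52. In bulk tissue, fewer cells of a type and less RNA per cell cannot be told apart, so that a larger share of muscle RNA and a higher level per muscle cell would read alike.

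Con 3 also stood apart for markers of other tissue. The 5 ventricular markers had mean deviations of 1.65 in Con 3, -0.90 and -0.59 in Con 1 and 2, and -0.31 to 0.24 in RAP. Their defining gene Myl2, the ventricular light chain, read 8.60 in Con 3 and 4.28 to 4.89 on the other 5 arrays, under the level of 5 used as the filter. Con 3 stood out less for Myl3 (10.90, and 9.11 in RAP 2) and Myh7 (11.22, and 10.84 in RAP 2). The same held for Irx4 (5.29, and 5.15 in RAP 2) and Hey2 (5.63, and 5.40 in RAP 3). The 6 erythroid markers were at 1.86 in Con 3 and -0.79 to -0.14 elsewhere. The 10 adipocyte markers, of which 4 rose (1 without replicate 1, and 0 to 2 with a single array left out, unpaired), were highest in RAP 3 (1.05) and ranged from -0.73 to 0.37 in the controls, and the brown fat gene Ucp1 read 6.92 in RAP 3 and 4.16 to 4.71 elsewhere. Myl2 and Ucp1 were chosen after their values were seen. Of 12 macrophage markers 1 fell (3.45% of all genes were called lower), and of 8 fibroblast markers 0 passed. Both lists were highest in Con 2, at 1.21 and 0.90, and lowest in RAP 2, at -0.69 and -0.91. The part of these cells in the subunit differences was not tested. With Con 3 left out (unpaired fit) 13 subunit genes passed (6.85% of all genes were called higher), and with RAP 3 left out 10 did (4.76%), the 5 among them in both cases.

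**Figure D4:**
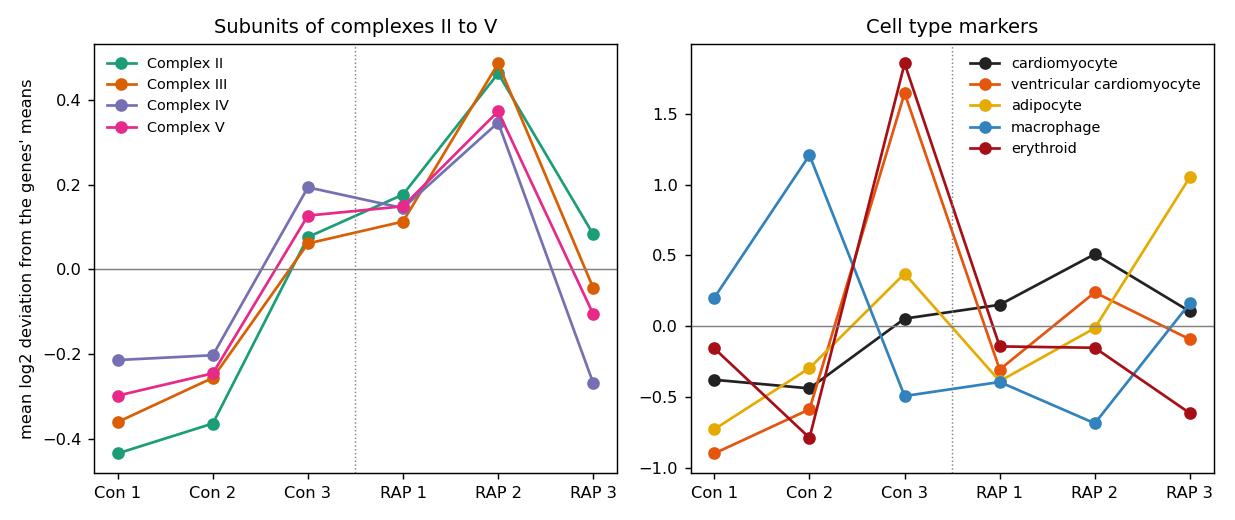
Mean log2 deviation of each array from the genes' averages, for the subunits of the 4 complexes (left) and for 5 lists of cell type markers (right, with its own scale); lines only join the arrays of a list, and the dotted line separates controls from RAP. The complexes are lowest in Con 1 and Con 2 except for complex IV, which is lowest in RAP 3 at -0.27, and the ventricular and erythroid markers stand at 1.65 and 1.86 in Con 3.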

How the data were processed

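RNA from 6 left atria was hybridised to whole-transcript rat arrays, 1 for each animal. The authors deposited log2 signals per probe set, made in Partek with robust multiarray averaging (background correction, quantile normalisation and summarisation of probes). The software version is not given in the sources used here. Such values carry no read depth, and the precision is limited by the number of arrays. The median log2 signal was 5.82 to 5.85 per array.

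Probe sets above a log2 signal of 5 in at least 1 array were kept (19907 of 29214), of which 11921 carry 1 symbol in the array annotation, for 11237 genes. RAP was compared with control pacing with limma 3.58.1 in R 4.3.3 (pair as a block, empirical Bayes with no trend), fitted on all kept probe sets, with 2 residual degrees of freedom and 2.76 from the prior. Thresholds were those of the study's methods, and p-values were adjusted over all genes by the Benjamini-Hochberg method. The code was tested on simulated data. An exact two-sided permutation test of 3 against 3 arrays that ignores the pairs cannot go below 0.1. Keeping the pairs leaves fewer arrangements, and so a higher floor.

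The pair numbers are those that the labels give each sample, and the study's methods describe how pairs were formed. The deviations of paired arrays from their group means were correlated at 0.22, -0.24 and -0.32 in pairs 1 to 3. The correlations were below 0 in pairs 2 and 3. With 3 pairs, and with arrays of different pairs not compared in this way, they cannot decide on the pairing. Members and lists were chosen with earlier results of these data known. Named in full were members past the thresholds, the largest difference in each complex and the muscle isoforms. Of other lists up to 3 genes past the thresholds were named, with a fixed set of regulators and partners. Medians over lists are descriptions with no test. Further marker lists (mast cells, endothelium, mesothelium, atrial and skeletal muscle) were read as well. Of these, Wt1 (-0.85) and Msln (-0.71) of 5 mesothelial genes fell, Pam (0.43) of 8 atrial and Myl1 (1.71) of 7 skeletal muscle genes rose, and 0 of 8 mast cell and 0 of 6 endothelial genes passed. Of all genes 2.94% were called higher and 3.45% lower. Promoters are RefSeq's (GRCr8). Alternatives concerned the block, moderation, array weights, filter, normalisation, probe set choice and each array.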

Additional observations from a re-analysis of the deposited data

How the results depend on the processing

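The 5 subunit genes called higher became 2 by the methods' paired t-test (Uqcrc1 and Atp5f1d), 23 with array weights and 0 at an adjusted p under 0.05, where limma had 5 at an unadjusted p under 0.05. The weights stood at 4.91 for the arrays of pair 1, 0.62 for pair 2 and 0.33 for pair 3, and 10.3% of all genes were then called higher. With these weights 12 subunit genes had an adjusted p under 0.05, and in each other setting 0 did. With replicates or single arrays left out the count ran from 1 to 25 (13 without Con 3 and 10 without RAP 3, unpaired), and without replicate 3, 9.49% of all genes were called higher. With no replicate block the pairing was ignored and 7 genes passed, Sdhc and Sdhd being added. Sdhc also passed, as a sixth gene, with a variance trend and robust moderation, without the filter, and after centring, quantile or cyclic loess normalisation. A stricter filter and the mean of a gene's probe sets left 5. Uqcrc1 was called in 19 of 20 settings and Atp5f1d in 18, and 0 subunit genes were called lower in any of the 20. The median over the subunit genes ran from 0.06 (without replicate 2) to 0.56 (without replicate 3), and that of complex IV from -0.01 to 0.53 in the same settings. Among the marker genes, the change of Cidec, an adipocyte gene called higher (0.58), ran from -0.22 without RAP 3 to 1.25 without Con 3 in unpaired fits. The cause of these shifts was not tested.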
